A study of Mus musculus with 7 samples.

Results

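Peripheral nerve in the skin was followed through 8 genes, Mbp, Pmp22, Prx, Sox10, S100b, Cdh19, Scn7a and Ngfr, which were picked by name as genes of myelin and of Schwann cells, out of 55450 genes in the count table. They were read in whole dorsal skin of wild-type male C57BL/6 mice aged 24 months, sequenced in bulk with 1 library per mouse. Every mouse had its back clipped and treated with a depilatory lotion. The 4 DMSO mice (480, 481, 482 and 483) then received the solvent alone. The 3 ABT-263 mice (476, 477 and 478) received 5 μM ABT-263, a small molecule that blocks anti-apoptotic Bcl-2 family proteins and is used to clear senescent cells. Both were applied to the skin daily for 5 days under a dressing. The comparison asks how the transcripts of these genes in aged skin differed after topical ABT-263. No cell sorting took place, so each value is an average over epidermis, dermis, fat, muscle and nerve of the piece.

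Schwann cells are the glia of peripheral nerves. Myelinating Schwann cells wrap a single large axon in compact myelin, a membrane spiral held together by proteins such as Pmp22 and Mbp. Non-myelinating Schwann cells hold bundles of thin sensory and autonomic axons without myelin, and are plentiful in skin, where many fibers are thin. The transcription factor Sox10 is needed for both kinds, and Egr2 drives the myelin program. After nerve injury Schwann cells leave the myelin program and take on a repair state that depends on the transcription factor Jun.

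Expression is given in CPM, the usual measure of a gene's counts relative to the total counts of its library, scaled by the trimmed mean of M-values (TMM). Total counts ran from 20344364 to 43562330 per library, with the ABT-263 libraries all above the DMSO ones. All 8 genes had enough counts to be tested. Differences are log2 fold changes of ABT-263 over DMSO with their standard error (SE), from edgeR's two-sided quasi-likelihood test. Its p-values were adjusted by the Benjamini-Hochberg method over the 17959 genes tested, and an adjusted p under 0.05 was taken as the threshold. Of all genes tested, 24.2% passed it, 12.4% as higher and 11.7% as lower after ABT-263.

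Of the 8 genes, 1 passed the threshold. S100b was lower after ABT-263, by 2.88-fold, and no gene was higher. The median log2 fold change of the 8 was -0.06, beside 0.00223 over all genes tested. The groups did not overlap for 2 of the 8, S100b and Ngfr, against 37.1% of all genes tested. In bulk skin, fewer cells of a type and less RNA per cell cannot be told apart.

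The promoters of 3 of the genes are shown because S100b was the gene that fell, and because Prx and Scn7a held a match to the binding motif of Egr2 and its family. Each is the 250 bases before the transcription start in RefSeq (build GRCm38.p6, which corresponds to the mm10 build of the counts). Capitals mark the motif, searched as GCGTGGG or, on the other strand, CCCACGC.
S100b, chr10:76253586-76253835, plus strand: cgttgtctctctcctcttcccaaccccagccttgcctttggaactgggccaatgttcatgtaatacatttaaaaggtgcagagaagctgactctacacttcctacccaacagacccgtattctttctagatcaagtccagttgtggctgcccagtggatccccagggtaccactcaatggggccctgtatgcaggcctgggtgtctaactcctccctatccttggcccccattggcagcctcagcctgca
Prx, chr7:27499074-27499323, plus strand: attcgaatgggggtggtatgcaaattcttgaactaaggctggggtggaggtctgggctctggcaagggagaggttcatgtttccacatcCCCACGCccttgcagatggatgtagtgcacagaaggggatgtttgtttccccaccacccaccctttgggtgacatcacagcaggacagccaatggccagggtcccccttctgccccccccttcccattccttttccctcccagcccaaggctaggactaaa
Scn7a, chr2:66784911-66785160, minus strand: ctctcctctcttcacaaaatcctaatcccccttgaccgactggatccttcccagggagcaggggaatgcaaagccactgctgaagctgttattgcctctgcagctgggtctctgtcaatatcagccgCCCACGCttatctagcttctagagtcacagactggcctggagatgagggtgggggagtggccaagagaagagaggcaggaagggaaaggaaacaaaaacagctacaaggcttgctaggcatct

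The match lay 161 bases before the start of Prx and 123 bases before that of Scn7a, and these letters are not in the window of S100b. RefSeq gave 8 windows for 5 of the 8 genes, and 2 of these 8 windows held the motif, as did 4.3% of all 32851 promoter windows of this length. Short forms of the Sox10 motif, ACAAAG (other strand CTTTGT) and ACAATG (other strand CATTGT), stood in 16.5% and 10.7% of all windows and in 0 of the 8. A match of letters is a description of the sequence and was not tied to binding in this skin.

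Mbp encodes myelin basic protein, which sits on the cytoplasmic side of the membrane and compacts the spiral. Its level was 52.2, 42.6, 50.4 and 62.4 CPM in DMSO mice 480 to 483 and 48.5, 43.6 and 50.4 CPM in ABT-263 mice 476 to 478. The ABT-263 values all lay inside the DMSO range. The DMSO mean was 51.9 ± 8.15 CPM (SD, n = 4), and the ABT-263 mean was 47.5 ± 3.51 CPM (SD, n = 3). The log2 fold change was -0.13 (SE 0.15, edgeR adjusted p = 0.552). The 95% interval ran from -0.47 to 0.21.

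Pmp22 encodes a membrane protein of compact myelin whose gene dosage is altered in inherited neuropathies, and other cells such as fibroblasts also make it. Its level was 82.4, 52.2, 82.5 and 104.9 CPM in the DMSO mice and 98.6, 74.4 and 113.1 CPM in the ABT-263 mice. The groups overlapped, with mouse 481 lowest and mouse 478 highest. Its log2 fold change was 0.24 (SE 0.24, edgeR adjusted p = 0.483), with a 95% interval from -0.31 to 0.80.

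Prx encodes periaxin, a scaffold of myelinating Schwann cells that links the myelin sheath to the surrounding matrix. Its level was 11.6, 8.98, 12.0 and 15.4 CPM in the DMSO mice and 13.0, 10.9 and 12.1 CPM in the ABT-263 mice. All ABT-263 values lay within the DMSO range. The difference in edgeR was -0.0013 on the log2 scale (SE 0.20, adjusted p = 0.996), with a 95% interval from -0.46 to 0.46, and its sign turned under other settings.

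Among the DMSO mice, Mbp, Pmp22 and Prx were all lowest in mouse 481 and all highest in mouse 483.

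Sox10 marks the whole lineage and is also made by melanocytes. Its level was 3.15, 4.38, 3.95 and 6.12 CPM in the DMSO mice and 3.15, 3.25 and 3.27 CPM in the ABT-263 mice. The ABT-263 mice lay close together, at 3.22 ± 0.0651 CPM (SD, n = 3), and the DMSO mice were more spread, at 4.40 ± 1.25 CPM (SD, n = 4). DMSO mouse 480 was as low as the ABT-263 mice. The log2 fold change was -0.45 (SE 0.26, edgeR adjusted p = 0.237), with a 95% interval from -1.05 to 0.15.

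S100b encodes a calcium-binding protein that is a standard stain for Schwann cells in skin and that melanocytes, adipocytes and some immune cells also carry. The gene lies at chr10:76253853-76261159 on the plus strand, and its exons share no bases with another gene of the same strand. It had 228, 269, 194 and 272 counts in the DMSO mice and 91, 167 and 159 counts in the larger libraries of the ABT-263 mice. In CPM the DMSO mice had 9.33, 11.3, 9.96 and 11.2, and the ABT-263 mice 3.25, 4.21 and 3.42. Every ABT-263 mouse was below every DMSO mouse. The DMSO mean was 10.45 ± 0.967 CPM (SD, n = 4), and it was 3.63 ± 0.512 CPM (SD, n = 3) in the treated mice. The log2 fold change was -1.52 (SE 0.19, edgeR adjusted p = 0.00619), with a 95% interval from -1.95 to -1.10. The call was kept with each mouse left out in turn, where the log2 fold change ran from -1.63 to -1.45 and the adjusted p from 0.00669 to 0.0299. Among all genes tested, 3.79% had a lower log2 fold change than S100b.

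Melanocytes also carry S100b and Sox10. The summed level of 8 melanocyte markers was 104.3, 331.8, 141.2 and 93.7 CPM in the DMSO mice and 23.2, 62.2 and 65.8 CPM in the ABT-263 mice, so the sums did not overlap. Of the 7 markers that could be tested, 1 was lower, Dct, an enzyme of melanin synthesis, which was at 58.1 to 198.8 CPM in DMSO against 3.86 to 30.2 CPM in treated mice (edgeR adjusted p = 0.0492), and 0 were higher. Dct gave most of the melanocyte sum in every DMSO mouse, so the sum and the call on Dct are not separate results. Single markers did not overlap between the groups for 2 of the 7, against 37.1% of all genes tested. Mitf, a transcription factor of melanocytes and other cells, had a positive log2 fold change of 0.45 (adjusted p = 0.194), and the other 5 had negative ones short of the threshold. Adipocyte sums overlapped between the groups at 738.0 to 2418 CPM in DMSO and 871.6 to 3296 CPM after ABT-263, and 0 of 6 passed the threshold. The part of either cell type in the level of S100b was not tested.

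**Figure D1:**
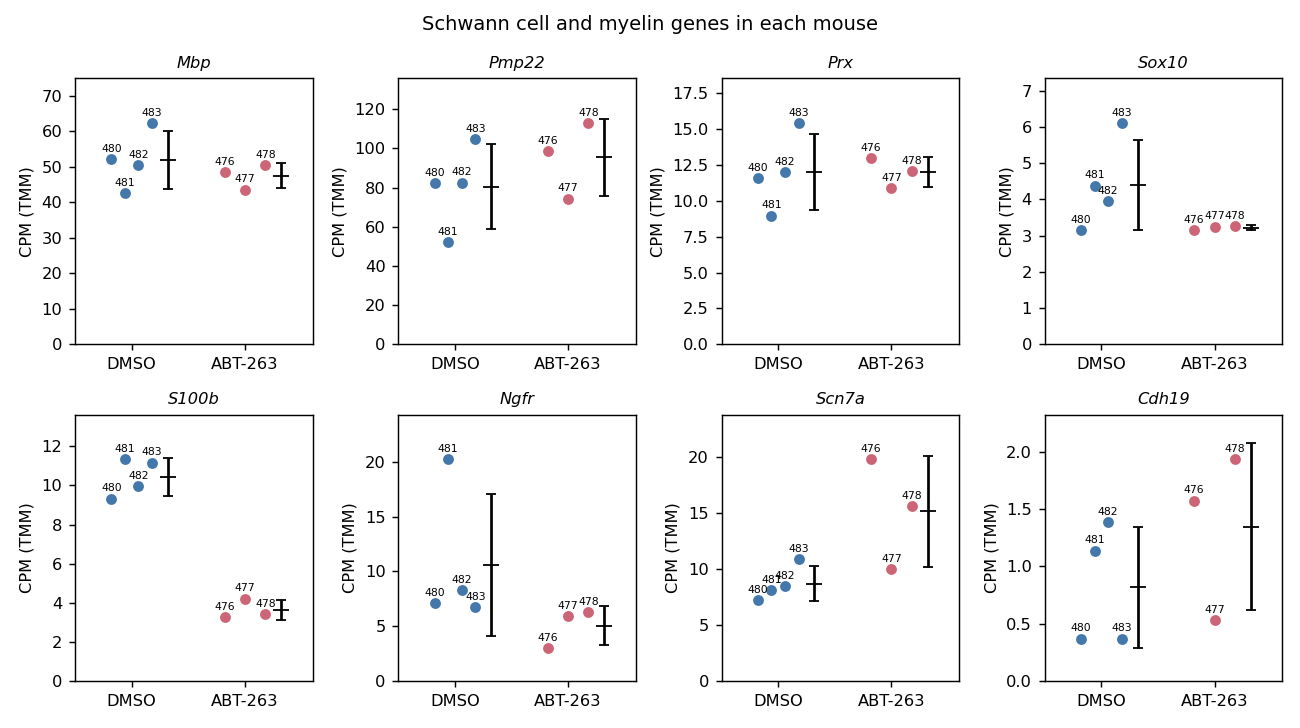
The level of each of the 8 genes in CPM (vertical axis of each panel, starting at 0) in the 4 DMSO and 3 ABT-263 mice, each point a mouse labeled with its number and each bar the group mean with its SD. S100b at 3.25 to 4.21 CPM after ABT-263 lies below the DMSO range of 9.33 to 11.3 CPM, while Mbp, Pmp22, Prx and Sox10 overlap.

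Ngfr encodes the p75 neurotrophin receptor, which is low on myelinating and higher on non-myelinating and repair Schwann cells and is also found in hair follicles. Its level was 7.08, 20.2, 8.31 and 6.74 CPM in the DMSO mice and 3.00, 5.90 and 6.27 CPM in the ABT-263 mice. The groups did not overlap, although mouse 478 lay just under mouse 483, and mouse 481 stood far above the other DMSO mice. The log2 fold change of -1.06 (SE 0.46) did not pass the threshold (edgeR adjusted p = 0.124). Without mouse 481 it was -0.54 (adjusted p = 0.244). Mouse 481 also stood apart in hair follicle keratins, a list of 10 genes added after the values had been seen. Their summed level was 2933 CPM in mouse 481, 20.5 to 29.3 CPM in the other DMSO mice, and 1.65, 5.04 and 498.3 CPM in ABT-263 mice 476, 477 and 478. The part of hair follicles in the level of Ngfr was not tested.

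Scn7a encodes a sodium channel family member that is made by non-myelinating Schwann cells and other glia and that senses sodium rather than carrying the action potential. The gene lies at chr2:66673425-66784914 on the minus strand. Its level was 7.24, 8.09, 8.47 and 10.9 CPM in the DMSO mice and 19.8, 9.98 and 15.6 CPM in the ABT-263 mice. Mice 476 and 478 were above every DMSO mouse, and mouse 477 was below mouse 483. The DMSO mean was 8.67 ± 1.56 CPM (SD, n = 4), beside 15.1 ± 4.91 CPM (SD, n = 3) in the treated mice. At a log2 fold change of 0.80 (SE 0.25, 95% interval 0.22 to 1.38) it just missed the threshold (edgeR adjusted p = 0.0512). It passed without mouse 477 (1.05, adjusted p = 0.0181) and in the DESeq2 Wald test (0.82, adjusted p = 0.0254), in which 26.8% of genes tested passed. Without mouse 476 it was 0.56 (adjusted p = 0.163). The summed level of 7 fibroblast markers, to which the type I collagen chains gave most, was 3879 to 5439 CPM in DMSO and 6158 to 8876 CPM after ABT-263, mouse 477 included. Of these 7 markers, 3 were higher, among them Col1a2, a chain of type I collagen (log2 fold change 0.83, adjusted p = 0.041), and Lum, a matrix proteoglycan (1.65, adjusted p = 0.00819), and 0 were lower. For 3 of the 7, Col1a1, Dcn and Dpt, the groups overlapped (adjusted p = 0.196, 0.191 and 0.184). The part of fibroblasts in the levels of Scn7a and Pmp22 was not tested.

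Cdh19 encodes a cadherin of Schwann cells and their precursors. It was the rarest of the 8, with 9, 27, 27 and 9 counts in the DMSO mice and 44, 21 and 90 counts in the ABT-263 mice. In CPM this was 0.368, 1.14, 1.39 and 0.370 in DMSO and 1.57, 0.529 and 1.93 after ABT-263, and the groups overlapped. Its log2 fold change was 0.73 with an SE of 0.62 (edgeR adjusted p = 0.415). The 95% interval was wide, from -0.70 to 2.16.

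**Figure D2:**
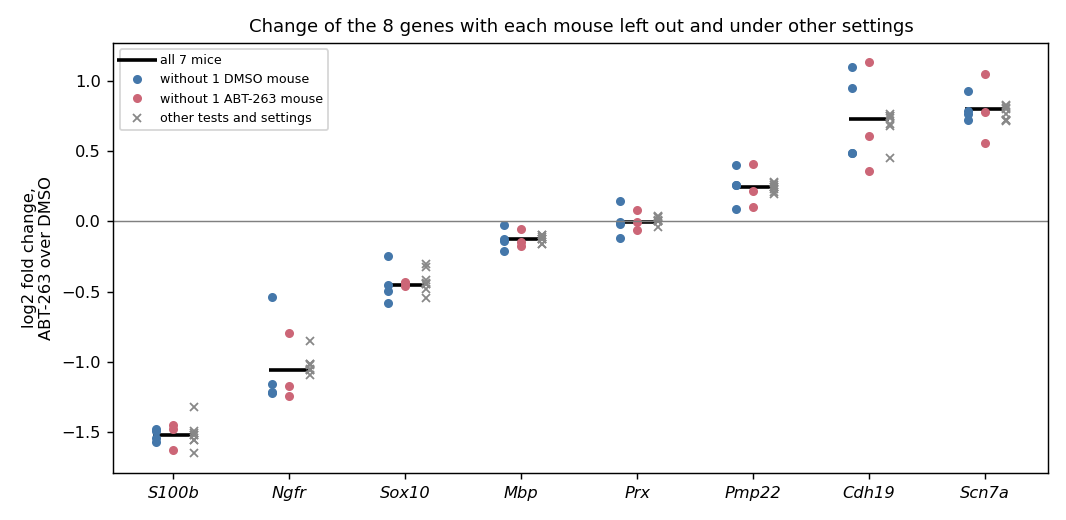
Log2 fold change of each of the 8 genes (vertical axis) with all mice (black line), with each mouse left out (blue for DMSO, red for ABT-263) and under 8 other tests and settings (crosses, 7 for Cdh19). S100b stayed between -1.65 and -1.33 and past the threshold in all of them, Scn7a ran from 0.56 to 1.05, and Ngfr ran from -1.25 to -0.54.

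Added up, the 8 genes gave 173.3, 148.9, 177.0 and 218.1 CPM in the DMSO mice and 190.9, 152.7 and 206.1 CPM in the ABT-263 mice. The means of 179.3 ± 28.7 CPM (SD, n = 4) and 183.2 ± 27.5 CPM (SD, n = 3) differed by less than the spread between mice. The sum is mostly Pmp22, at 35.0% to 54.9% of it, and Mbp, at 24.4% to 30.1%, so a gene such as S100b, at 1.66% to 7.61%, hardly enters it.

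To compare the genes with each other, levels were divided by the length of their exons (CPM per kb). This length joins all annotated exons of a gene, 8469 bases for Mbp and 1484 for S100b. Single transcripts can be shorter, and which of them were present was not tested. The order between genes, that of S100b and Mbp included, therefore depends on this choice of length. In DMSO skin the order was Pmp22 at 34.2 CPM per kb, then S100b at 7.04, Mbp at 6.13, Ngfr at 3.07, Prx at 2.15, Sox10 at 1.44, Scn7a at 1.18 and Cdh19 at 0.191. Pmp22 stood clear of the next gene and Cdh19 clear of the gene before it, and the ranges of all other neighbors overlapped. On this scale S100b was nevertheless above Mbp in 4 of 4 DMSO mice. After ABT-263 the order was Pmp22 at 40.5 CPM per kb, Mbp at 5.61, S100b at 2.44, Prx at 2.15, Scn7a at 2.06, Ngfr at 1.47, Sox10 at 1.06 and Cdh19 at 0.314. Mbp was then above S100b in 3 of 3 mice on the same scale, and their ranges did not overlap. S100b, Prx, Scn7a, Ngfr and Sox10 followed each other with overlapping ranges between neighbors.

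Likeness to Sox10 was measured as the mean absolute difference of log2 CPM, each gene centered on its own mean, over the 7 libraries. Among 15544 genes with a mean of at least 1 CPM, the closest were Ndufab1 (0.0726), Trim24 (0.0833), Ube2d1 (0.0884), Lrrc51 (0.0903) and Dmac2 (0.0911). The closest of the other genes in the group of 8 was Mbp at 0.239, at rank 1957. A gene with the same level in every library would score 0.276, so Mbp was little nearer to Sox10 than that, Prx was at 0.277, and S100b was at 0.550, at rank 11235.

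A further 42 genes of Schwann cells, in 4 lists by role, were taken from the same fit, and 39 could be tested. Of these, 7 were higher and 9 were lower after ABT-263, or 41.0% called, against 24.2% of all genes tested. The median log2 fold change was -0.28. The groups did not overlap for 19 of the 39, against 37.1% of all genes tested. Many of these calls rested on all 7 mice. With 1 mouse left out, 4 to 7 were higher and 2 to 5 lower, and the lowest counts were seen without mouse 478 (4 and 2) and without mouse 483 (4 and 2). In these same fits the count over all genes ran from 1761 to 4221, against 4342 with all mice.

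Of 14 further genes of myelin structure, 2 were higher and 2 lower (28.6% called, against 24.2% of all genes tested). Mal, a proteolipid of myelin and of epithelial cells, had 2.01, 1.05, 1.39 and 1.44 CPM in the DMSO mice and 9.12, 3.86 and 4.77 CPM in the ABT-263 mice. All ABT-263 mice lay above all DMSO mice (log2 fold change 2.00, SE 0.36, edgeR adjusted p = 0.0109), and the call was kept with each mouse left out. The other calls of this list were Nfasc, an adhesion protein of the node of Ranvier (1.23, adjusted p = 0.0354), Cldn19, a tight junction protein of the myelin sheath (-1.15, adjusted p = 0.0394), and Gldn, a node assembly protein (-1.43, adjusted p = 0.0384). Each of these last 3 kept its call in only 1 of the 7 fits with a mouse left out.

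Mag, an adhesion molecule at the inner face of myelin, was at 1.48 to 2.71 CPM in DMSO and 1.24 to 3.65 CPM after ABT-263 (log2 fold change 0.05, edgeR adjusted p = 0.939).

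Regulators of Schwann cell fate were measured in 11 tested genes, of which 2 were higher and 0 lower (18.2% called, against 24.2% of all). Dhh, a hedgehog ligand that Schwann cells send to the perineurium, was at 2.46, 1.26, 1.69 and 1.36 CPM in DMSO and 4.54, 3.40 and 4.68 CPM after ABT-263 (log2 fold change 1.31, SE 0.30, edgeR adjusted p = 0.02). Of the exon bases of Dhh, 12.4% are shared with Rhebl1 on the same strand, and the part of Rhebl1 in these counts was not tested. Dhh kept its call in 3 of the 7 fits with a mouse left out. Yy1, a widely made transcription factor that also acts on Egr2, was at 37.3 to 42.5 CPM in DMSO and 54.2 to 65.0 CPM after ABT-263 (0.61, adjusted p = 0.013), in 7 of 7. Egr2 itself was at 16.4 to 23.8 CPM in DMSO and 17.3 to 30.7 CPM after ABT-263 (0.37, adjusted p = 0.252). Erbb3, the receptor for the axonal signal neuregulin, was at 63.4 to 88.3 CPM and 39.6 to 78.8 CPM (-0.28, adjusted p = 0.397). The part of other skin cells in the levels of Egr2 and Erbb3 was not tested.

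The list of non-myelinating Schwann cells held 8 genes, of which 2, Gfap and Sorcs1, had too few counts to be tested. All 6 tested genes on it passed the threshold, against 24.2% of all genes tested. Of the 6, 2 were higher and 4 were lower. Ncam1, a neural cell adhesion molecule, fell from 21.2, 31.1, 23.9 and 17.1 CPM in the DMSO mice to 10.2, 12.9 and 11.2 CPM in the ABT-263 mice (log2 fold change -1.03, SE 0.22, edgeR adjusted p = 0.0159), and lost its call only without mouse 478 (adjusted p = 0.0566). L1cam, an adhesion molecule that binds axons, fell from 23.7 to 29.3 CPM to 11.2 to 21.4 CPM (-0.83, adjusted p = 0.0324). Gfra3, the receptor for artemin, and Kcna1, a potassium channel, were lower too (-1.07, adjusted p = 0.0248, and -1.58, adjusted p = 0.0299). L1cam kept its call in 1, Gfra3 in 2 and Kcna1 in 3 of the 7 fits with a mouse left out. Ncam1 and Gfra3 were highest in mouse 481, which also had the highest hair keratins, and Kcna1 was highest in mouse 483. L1cam was near level in DMSO mice 480, 481 and 483, at 29.2, 29.3 and 29.0 CPM, and lower in mouse 482, at 23.7 CPM. The part of hair follicles and other skin cells in the levels of these genes was not tested.

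Mcam and Matn2 were higher. Mcam, an adhesion molecule of endothelium and vessel walls, was at 28.2 to 49.7 CPM in DMSO and 76.2 to 101.1 CPM after ABT-263 (log2 fold change 1.04, edgeR adjusted p = 0.0139). All 5 endothelial markers were higher in the same comparison, with sums of 100.5 to 208.6 CPM in DMSO and 317.0 to 417.3 CPM after ABT-263. The part of endothelium in the level of Mcam was not tested. Matn2, a matrix protein, was at 11.8 to 17.8 CPM and 22.1 to 38.8 CPM (0.91, adjusted p = 0.0271) and kept its call in 4 of the 7 fits.

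Of 8 genes of the repair state, 1 was higher and 3 were lower (50% called, against 24.2% of all genes tested). Jun had 106.2, 107.9, 97.0 and 83.5 CPM in the DMSO mice and 164.8, 148.2 and 158.0 CPM in the ABT-263 mice (log2 fold change 0.67, SE 0.13, edgeR adjusted p = 0.0132), and kept its call in 7 of 7 fits. Jun is made by most cells of skin. Igfbp2, a binding protein of insulin-like growth factors, fell from 64.8 to 101.0 CPM to 18.6 to 44.3 CPM (-1.32, adjusted p = 0.0215), and lost its call without mouse 478 (adjusted p = 0.0728). Shh, a hedgehog ligand that is also made in growing hair follicles, was at 4.26, 13.1, 3.90 and 2.79 CPM in DMSO and 0.250, 0.807 and 1.87 CPM after ABT-263 (-2.58, adjusted p = 0.0457). Without mouse 481, which had the highest hair keratins, Shh was at -1.87 (adjusted p = 0.0821). Olig1, a transcription factor, was at 0.462 to 1.56 CPM and 0.214 to 0.301 CPM (-1.74, adjusted p = 0.0406). Shh and Olig1 each kept their call in 1 of the 7 fits.

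**Figure D3:**
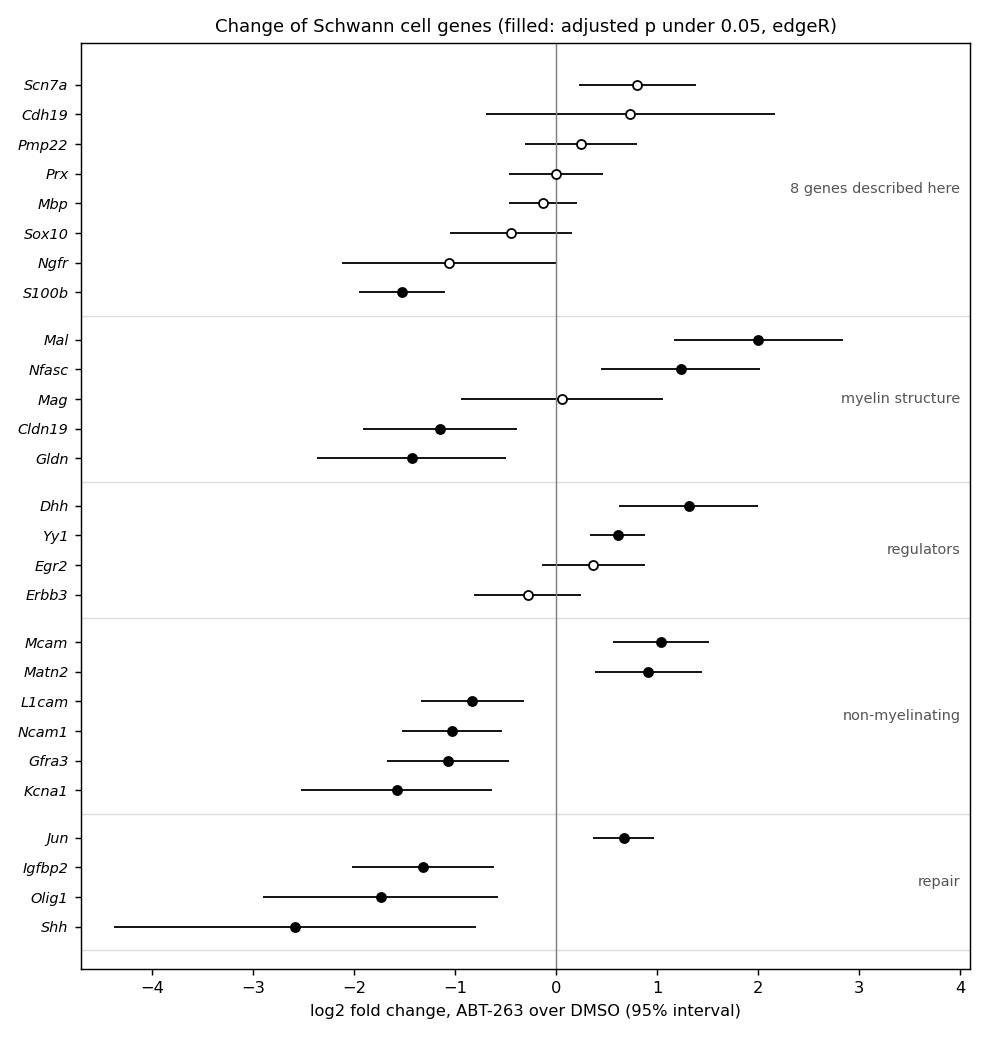
Log2 fold change of ABT-263 over DMSO (horizontal axis) from edgeR for the 8 genes and for the named genes of the 4 other Schwann cell lists, each point an estimate with its 95% interval and filled where the adjusted p was under 0.05. S100b at -1.52 is the filled point among the 8, Scn7a at 0.80 is open at an adjusted p of 0.0512, and the other lists hold filled points on both sides of 0 except the regulators, where both are above it.

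The axons that Schwann cells accompany have their cell bodies in ganglia outside the skin. Of 12 genes of sensory neurons, 4 could be tested and 0 passed the threshold. Scn10a, a sodium channel of pain fibers, had 0 counts in all 7 libraries, which allows up to 0.0689 to 0.147 CPM at 3 counts per library, by counting error alone. The sum of the 12 was mostly Uchl1, a ubiquitin hydrolase named after its values were seen. Uchl1 was at 51.2, 72.8, 15.45 and 13.1 CPM in DMSO mice 480 to 483 and 7.84 to 10.9 CPM after ABT-263. Its log2 fold change of -2.01 (SE 0.63) just missed the threshold (edgeR adjusted p = 0.0531). The sums of the 12 were 15.6 to 75.7 CPM in DMSO and 10.5 to 12.8 CPM after ABT-263.

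The skin label was matched by its own markers, with Krt14, a keratin of basal epidermis, at 8427 to 24880 CPM over all mice. Skeletal muscle markers were high too, with sums of 28040 to 57500 CPM in DMSO and 23450 to 32880 CPM after ABT-263. Basal keratinocyte sums were 18400 to 31260 CPM in DMSO and 13810 to 35890 CPM after ABT-263. Sums of basal keratinocyte, skeletal muscle, T cell and pericyte markers overlapped between the groups. Of these lists, 1 of 6 basal keratinocyte genes (Krt15, log2 fold change -1.45, edgeR adjusted p = 0.0312) and 1 of 7 muscle genes (Tnnt3, -1.16, adjusted p = 0.0319) were lower, and 0 of 6 T cell and 0 of 5 pericyte genes passed. Macrophage markers were higher, 5 of 6, with sums of 294.7 to 871.4 CPM in DMSO and 933.0 to 3077 CPM after ABT-263. Their part in the results above was not tested.

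**Figure D4:**
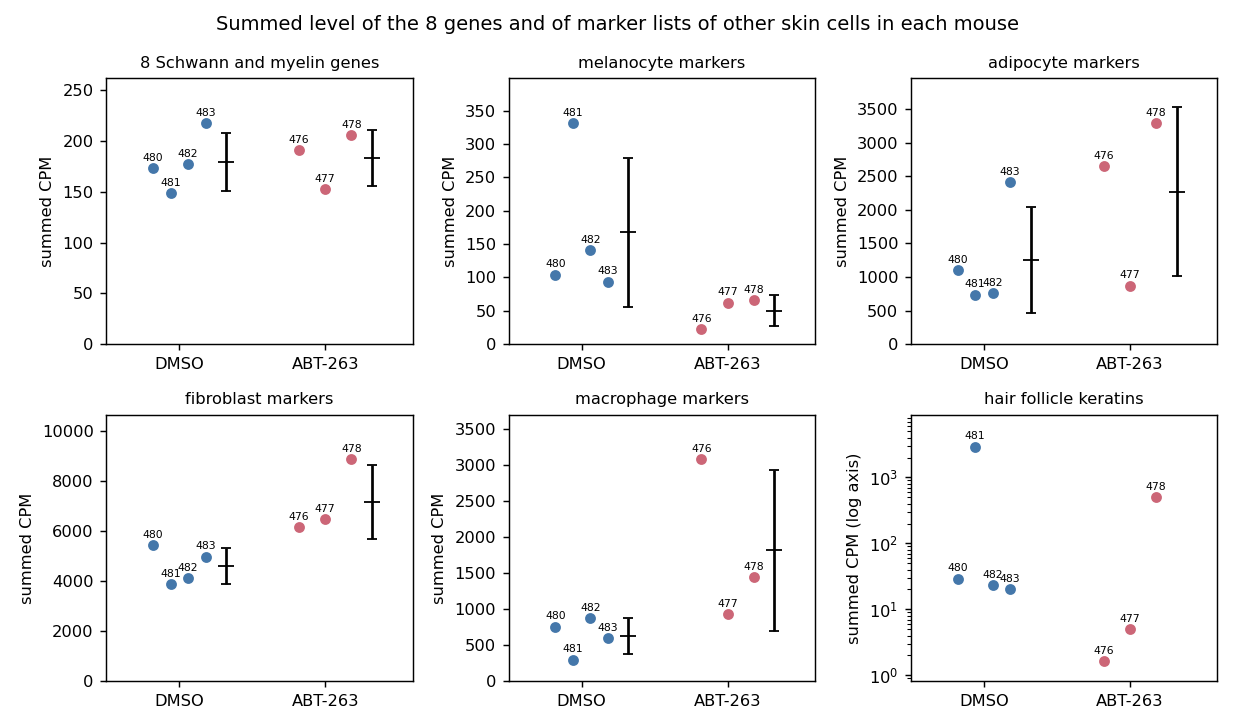
Summed CPM (vertical axis) of the 8 Schwann cell and myelin genes and of 5 lists of markers of other skin cells, each point a mouse labeled with its number and each bar the group mean with its SD; the hair keratin panel has a log axis and no bar. The 8 genes overlap at 148.9 to 218.1 CPM, the melanocyte sums are lower after ABT-263, the fibroblast and macrophage sums are higher, and mouse 481 stands far above the other DMSO mice in hair keratins.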

How the data were processed

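RNA of dorsal skin from 7 mice was sequenced, and mice were grouped by the treatment in their labels. The authors aligned reads to mm10 with STAR 2.7.9a and deposited raw counts per Ensembl gene from featureCounts (Subread 1.6.2; unique proper pairs, same strand, no mitochondrial genes). The authors also deposited log2-scale values from DESeq2's variance-stabilizing transformation, used only for the limma alternative.

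Counts were tested in R 4.3.3 with edgeR 4.0.16 (TMM, filterByExpr, robust quasi-likelihood fit without covariates), which kept 17959 of 30645 genes with a count. The fit was tested on simulated data. DESeq2 1.42.0 and limma 3.58.1 served as alternatives. Other alternatives changed the scaling, the count filter (including at least 10 counts in every sample), the gene set or the depth, removed length and GC trends (mgcv 1.9.3), or left out each mouse. Symbols and exon lengths came from GENCODE annotation of GRCm38, which held 55190 of the 55450 genes.

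The 8 genes and all lists were chosen with earlier results of these data known. Genes named beyond the 8 were Mag, Egr2, Erbb3, called genes of the 4 Schwann cell lists and the 5 genes nearest Sox10. In the marker lists, up to 2 called genes per list were named, the most abundant ones. Values of Mitf, Col1a1, Dcn, Dpt, Krt14, Scn10a and Uchl1 were given outside this rule. Some genes of the Schwann cell lists are not reported here and were left out of the list counts; they stayed in the fit over all genes.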

Additional observations from a re-analysis of the deposited data

Results flagged for a closer look

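In 8 of 44 measures examined among the 4 DMSO mice, the highest or lowest mouse stood apart, its gap to the next mouse taking more of the group's range than Dixon's 95% critical value. Chance alone gives about 1 in 20, or 2.2 of 44, for measures fixed in advance. The hair follicle list was added after the values had been seen, and the sums share genes with single measures. The 8 can therefore not be set against 2.2 as a test. The gap took 0.883 of the range for Ngfr, 0.911 for Gfra3, 0.858 for Shh and 0.997 for the summed hair follicle keratins, all with mouse 481 highest. It took 0.943 for L1cam, with mouse 482 lowest, and 0.894 for Kcna1, with mouse 483 highest. Mouse 480 was highest for Igfbp2 (0.917) and for the summed basal keratinocyte markers (0.910). The group of 3 ABT-263 mice was too small for this rule.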

How the results depend on the processing

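The calls on the 8 genes were the same under all alternatives except for Scn7a. Its log2 fold change passed the threshold in the DESeq2 Wald test (0.82), with at least 10 counts in every sample (0.80), with every gene with a count (0.83), with length and GC trends removed (0.72) and without ABT-263 mouse 477, so that 1 of the 8 was then higher. Prx, at -0.0013, turned sign without passing the threshold: it was 0.0127 in the Wald test, 0.0031 with DESeq2's size factors, 0.0019 with at least 10 counts, 0.0303 with every gene with a count, 0.0354 with the trends removed, 0.0332 in limma, 0.0037 thinned to the smallest library, 0.0809 without ABT-263 mouse 477 and 0.144 without DMSO mouse 483. Of the other Schwann cell genes, 12 were lower in the Wald test, 7 in limma and with at least 10 counts, and 5 with every gene with a count. The filter of 10 counts removed Shh and Olig1 from the test. The cause in the other settings was not tested. Calls lost were Olig1 (adjusted p = 0.0614) and Cldn19 (0.0541) in limma, Olig1 with the trends removed (0.0529), Shh when thinned (0.0601), and Cldn19 (0.0614), Gfra3 (0.0614), Olig1 (0.0739) and Shh (0.111) with every gene with a count. Cdh19 also gave no value under the filter of 10 counts.

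With each mouse left out, genes past the threshold ran from 1761 to 4221, higher genes from 824 to 2362, lower genes from 822 to 2072, and the median of the 8 from -0.16 to 0.06. The lowest total was without DMSO mouse 482, and it was 1802 without ABT-263 mouse 478, 2029 without DMSO mouse 483, 2370 without ABT-263 mouse 476 and 2801 without DMSO mouse 481. Of the 8, 0 to 1 were higher and 1 to 1 lower, and of the other Schwann cell genes 4 to 7 were higher and 2 to 5 lower. S100b ran from -1.63 to -1.45, Scn7a from 0.56 to 1.05 and Prx from -0.12 to 0.14. Fewer mice per group were part of each such fit.

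No paired analysis was possible because the mice of the 2 groups share no replicate number. Groups of 4 and 3 mice and the low counts of Cdh19 limit the precision. No batch was given in the labels.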
